A study of Mus musculus with 3 samples.

Results

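The transcripts described here are 7 genes of the gamma and delta T cell receptor loci: the delta constant gene Trdc, the delta variable gene Trdv4, the gamma constant genes Tcrg-C1, Tcrg-C2 and Tcrg-C4, and the gamma variable genes Tcrg-V6 and Trgv2. They are 7 of the 32285 genes in the deposited tables. They were chosen by symbol because earlier values of these same libraries showed them in several lymphocyte types, so their levels by cell type and by Kaede color are given as a description, without a test. The samples were tumor-infiltrating lymphocytes (TILs) from subcutaneous MC38-Ova tumors, a mouse colon carcinoma line carrying ovalbumin, grown in C57BL/6 mice with the Kaede transgene and given an isotype control antibody. Kaede is a protein that light converts from green to red: tumors were converted on day 13 and taken on day 15, so that 48 h later Kaede-green (KG+) cells were those not marked by the light and Kaede-red (KR+) cells those marked in the tumor. There were 2 KG+ libraries and 1 KR+ library, sorted as live CD45+ Ter119- cells with absent or low CD11b, and no test between colors was possible. The labels call the KG+ libraries biological replicates but do not say which mice, or how many, gave each library. The p-values below therefore measure how differences within a library vary over the 3 libraries, and no spread between mice. In the comparisons by Trdc that spread was taken from the trend over all genes.

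Gamma-delta T cells rearrange a gamma and a delta chain in place of the alpha and beta chains that most T cells carry. In mice, the gamma locus is split into cassettes, each with its own constant gene next to its own variable genes, and different gamma-delta T cell populations use different cassettes. The delta genes lie inside the alpha locus, are normally deleted when that locus rearranges its alpha genes, and can be transcribed without a productive rearrangement. NK cells have no antigen receptor of their own and keep these loci in the germline order. A transcript of a constant gene is therefore not by itself a receptor.

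The constant genes can be told apart only where their sequences differ. The stretch of their first coding exon shown here is the 60-base window in which the 3 genes differ at the most positions. In the lines below, taken from the GRCm38 genome and written from 5′ to 3′ on the coding strand, capitals mark the 18 of 60 positions at which the 3 genes are not identical.
Tcrg-C1, chr13:19214245-19214304, plus strand: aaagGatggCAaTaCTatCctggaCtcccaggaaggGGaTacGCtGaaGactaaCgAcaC
Tcrg-C2, chr13:19307350-19307409, minus strand: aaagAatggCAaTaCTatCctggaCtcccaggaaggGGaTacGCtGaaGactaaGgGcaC
Tcrg-C4, chr13:19344700-19344759, plus strand: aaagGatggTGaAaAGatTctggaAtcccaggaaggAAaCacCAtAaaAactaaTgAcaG
Over the whole of exon 1, which has 330 bases in each gene, Tcrg-C1 and Tcrg-C2 differed at 9 positions (97.3% identity), and Tcrg-C4 differed from Tcrg-C1 at 59 (82.1%). Of all 90-base stretches of the spliced transcript, 11.1% in Tcrg-C1, 2.55% in Tcrg-C2 and 0 in Tcrg-C4 also occurred in another transcript of the annotation. Levels of Tcrg-C1 may thus be the least certain of the 3, since Cell Ranger, which the authors used, does not count reads that match more than 1 gene. Whether the shared stretches lie where the reads of a 3′ kit fall was not checked. The delta constant gene has its own sequence, shown here by its second exon because this stretch belongs to no gamma gene.
Trdc exon 2, chr14:54143771-54143836, plus strand: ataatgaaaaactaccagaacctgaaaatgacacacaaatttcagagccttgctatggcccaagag
The first 90 bases of exon 2 of Trdv4, the delta variable gene found in NK cells below, are as follows.
Trdv4, chr14:54075217-54075306, plus strand: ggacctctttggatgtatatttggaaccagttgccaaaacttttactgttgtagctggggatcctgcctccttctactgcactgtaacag

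On GRCm38 with the GENCODE annotation, Trdc lay at chr14:54142851-54148868 on the plus strand with 4 exons, of which the last, mostly 3′ untranslated, took 3403 of 3865 transcript bases. Trdv4 (chr14:54074905-54075515, plus strand, 2 exons) lay upstream of it. The gamma genes were on chromosome 13: Tcrg-V6 at 19190356-19190929 and Tcrg-C1 at 19214103-19217024 on the plus strand, Tcrg-C2 at 19304649-19307551 and Trgv2 at 19336573-19337167 on the minus strand, and Tcrg-C4 at 19344558-19352756 on the plus strand. Genes on the opposite strand overlap Trdc (Gm43434 and Trdv5), Trdv4 (Gm30275) and Tcrg-V6 (Gm31887). The libraries were made with a strand-specific 3′ kit.

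After filtering, 30860 cells remained, 9643 and 10608 from the KG+ libraries and 10609 from the KR+ library, at medians of 6494, 8338 and 11834 unique molecular identifiers (UMIs, each 1 captured molecule) per cell. The libraries shared 20 to 36 cell barcodes pairwise. Cell types were set by counts of a few genes: NK cells had a UMI of Ncr1 and at most 1 of Cd3e, ILC-like cells were those NK cells with 2 or more UMIs of Rora and none of Eomes, and all NK values below leave the ILC-like cells out. T cells had 2 or more UMIs of Cd3e and were split into CD8 T, CD4 T and double-negative (DN) T cells, the last with or without a UMI of Cd163l1, the scavenger receptor SCART1 of IL-17-type gamma-delta T cells. B cells, with 2 or more UMIs of Cd79a, served as the background. Across the 3 libraries this gave 7836 NK, 493 ILC-like, 9668 CD8 T, 1821 CD4 T, 475 Cd163l1+ DN T, 3092 Cd163l1- DN T and 343 B cells. Only 10 of the B cells were in Kaede-red. The NK cells held all 5 NK markers at 20 UMIs per 1000000 (counts per 1000000, CPM) or more in every library, and the sum of 6 IL-17-type gamma-delta T cell markers (Cd163l1, Sox13, Il17a, Il23r and Blk among them) was 1239 to 2957 CPM in Cd163l1+ DN T cells against 0.587 to 1.81 CPM in NK cells. Ncr1 and Cd163l1, which the cell type rules use, are among these markers, so their part in these values was fixed in advance. Summed B cell markers in NK cells were 0.881 to 8.13 CPM.

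Trdc was highest in Cd163l1+ DN T cells and was also present in a large share of NK cells. Values below give the 2 KG+ libraries first (Kaede-green 1, then 2) and the KR+ library (Kaede-red) last, and a CPM is the summed UMIs of a gene per 1000000 UMIs of that cell type in that library. In Cd163l1+ DN T cells Trdc stood at 2643, 2115 and 3134 CPM, followed by Cd163l1- DN T cells at 229.4, 144.5 and 182.5 CPM and NK cells at 110.9, 102.5 and 49.5 CPM. The ranges of these 3 types over the libraries did not overlap. CD4 T cells (59.6, 17.8 and 12.6 CPM) overlapped NK cells above them and ILC-like cells (18.1, 22.9 and 9.64 CPM) below them, and ILC-like cells overlapped CD8 T cells (20.9, 14.0 and 9.84 CPM). B cells held 7, 1 and 0 UMIs, or 7.82, 1.00 and 0 CPM.

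In NK cells, 40.8%, 45.0% and 43.5% of cells held at least 1 Trdc UMI, at median depths of 6045, 7954 and 17515 UMIs, against 2.54%, 0.735% and 0% of B cells at 3993, 4968 and 5846 UMIs. The 0 of 10 Kaede-red B cells allows a share of up to 30.85%. With each cell thinned to 2000 UMIs the shares in NK cells were 18.5%, 18.0% and 10.1%, and in B cells 0.508%, 0% and 0%. In both KG+ libraries the NK share lay far above that of B cells at either depth. CD8 T cells held Trdc in 1.86%, 2.14% and 1.00% of cells at 2000 UMIs, below the upper counting limits of the few B cells, 2.80% and 2.68% in the KG+ libraries. With all UMIs the CD8 T cell shares were 4.89%, 8.27% and 4.40%, above those of B cells, but at greater median depths of 8900, 10371 and 14068 UMIs. Only in Kaede-green 2 did the counting intervals of these shares not overlap. The CPM ranges of CD8 T and B cells did not overlap. ILC-like cells held it in 2.25%, 4.58% and 1.99%, with counting intervals that overlapped those of B cells. Cd163l1+ DN T cells held it in 91.8%, 90.8% and 95.2%. Cd163l1- DN T cells, above NK cells in CPM, held it in 18.0%, 14.4% and 13.7%, lower than NK cells in both KG+ libraries and higher in Kaede-red.

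The amount per cell differed as much as the share. Of the 7836 NK cells, 4460 held no Trdc UMI, 1625 held 1, 1448 held 2 to 4, 278 held 5 to 9 and 25 (0.319%) held 10 or more, with 18 the highest. Of the 475 Cd163l1+ DN T cells, 358 (75.4%) held 10 or more and the highest held 119. Of the 3092 Cd163l1- DN T cells, 2458 held none and 186 (6.02%) held 10 or more. Trdc in NK cells was thus a low level spread over many cells: the 10 NK cells with the most Trdc held 3.98% to 5.10% of its UMIs in a library. CD8 T cells had the opposite shape, with 9105 of 9668 cells at 0 but 51 at 10 or more and a highest count of 43.

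Trdv4, the other delta gene, was found in Cd163l1+ DN T cells, ILC-like cells and NK cells. Cd163l1+ DN T cells stood at 426.8, 476.7 and 529.1 CPM, ILC-like cells at 49.7, 57.2 and 29.9 CPM and NK cells at 50.4, 52.7 and 27.1 CPM. The last 2 types overlapped in range. Cd163l1- DN T cells held Trdv4 at only 1.08, 2.57 and 2.33 CPM and CD8 T cells at 2.20, 2.14 and 1.13 CPM, close to the 1.12 and 2.01 CPM (1 and 2 UMIs) of B cells in the KG+ libraries. At 2000 UMIs per cell, 10.7%, 10.96% and 7.27% of NK cells held a Trdv4 UMI.

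**Figure D1:**
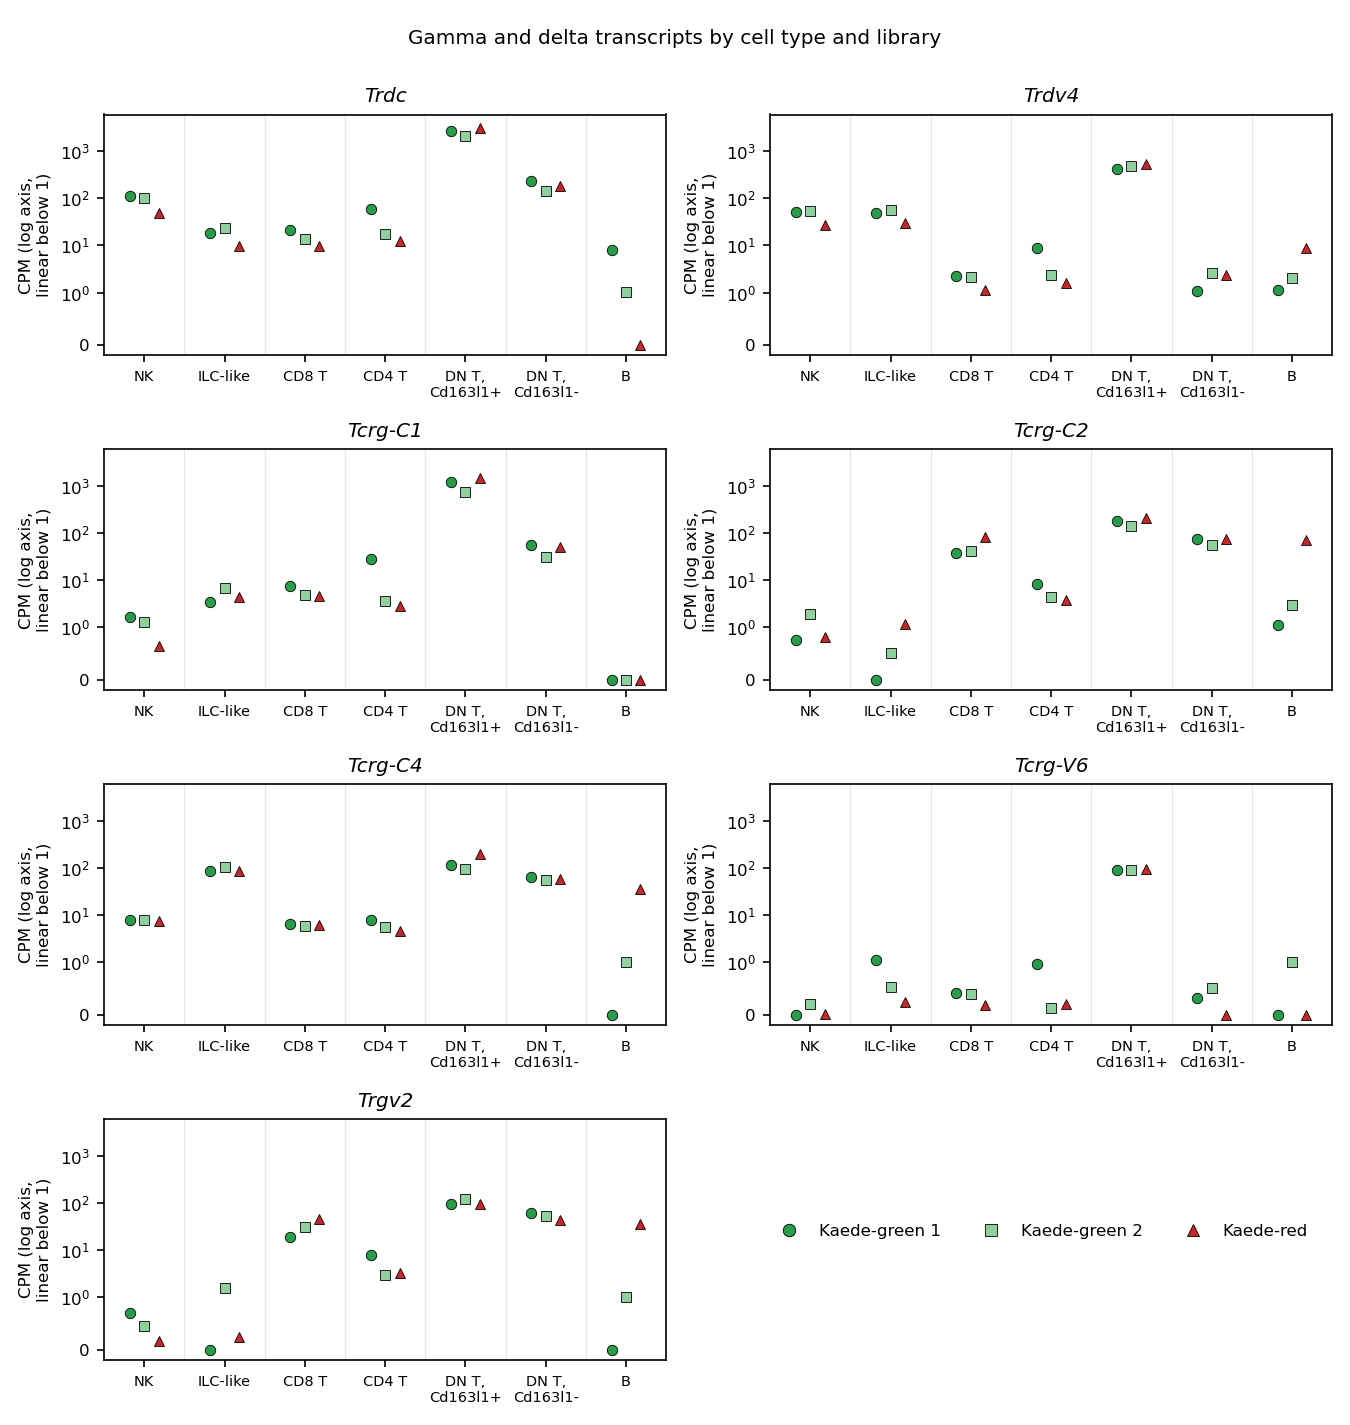
Level of each of the 7 genes in CPM (vertical axis, logarithmic above 1 and linear below) in 7 cell types, with 1 point per library (circles Kaede-green 1, squares Kaede-green 2, triangles Kaede-red). Cd163l1+ DN T cells lead for Trdc at 2115 to 3134 CPM, NK cells hold Trdc and Trdv4 and ILC-like cells Trdv4, and CD8 T cells hold Tcrg-C2 and Trgv2.

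The proportion of Trdv4 to Trdc differed between the cell types. NK cells held 0.455, 0.514 and 0.548 Trdv4 UMIs per Trdc UMI and ILC-like cells held 2.75, 2.50 and 3.10. Cd163l1+ DN T cells held 0.162, 0.225 and 0.169, CD8 T cells 0.105, 0.153 and 0.115, and Cd163l1- DN T cells 0.00469, 0.0178 and 0.0128. These ranges did not overlap between NK cells, ILC-like cells and any T cell type.

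Among the gamma constant genes, Tcrg-C1 went with the Cd163l1+ DN T cells. It stood there at 1246, 740.1 and 1505 CPM, at 55.6, 31.7 and 51.0 CPM in Cd163l1- DN T cells and at 1.67, 1.32 and 0.639 CPM in NK cells. B cells held 0 UMIs of it in all 3 libraries. Tcrg-V6, a variable gene of the same cassette and the gamma chain of many IL-17-producing cells, was at 90.6, 92.4 and 96.8 CPM in Cd163l1+ DN T cells and at most 1.13 CPM elsewhere. NK cells held 0, 5 and 1 UMIs of it.

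Tcrg-C2 and Trgv2, both on the minus strand of the gamma locus, were found in the same cell types. Tcrg-C2 stood at 178.5, 139.9 and 211.0 CPM in Cd163l1+ DN T cells, 76.1, 56.2 and 76.3 CPM in Cd163l1- DN T cells and 37.3, 41.6 and 82.1 CPM in CD8 T cells. Trgv2 stood at 94.2, 119.5 and 93.7 CPM, then 60.3, 53.5 and 44.4 CPM, and 18.7, 30.5 and 45.0 CPM in the same types. For both genes the last 2 types overlapped. In NK cells Tcrg-C2 was at most 1.93 CPM and Trgv2 at most 0.700 CPM. Kaede-red B cells showed 70.9 CPM of Tcrg-C2, which was 8 UMIs in 1 of the 10 cells, a cell that also met the CD8 T rule.

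Tcrg-C4 had a different order, with the ILC-like cells near the top. It stood at 116.9, 97.8 and 198.4 CPM in Cd163l1+ DN T cells and 85.9, 106.6 and 87.7 CPM in ILC-like cells, which overlapped. Cd163l1- DN T cells followed at 64.3, 54.5 and 59.8 CPM, below both. NK cells held 7.91, 8.05 and 7.70 CPM. At 2000 UMIs, 16.9%, 20.9% and 17.1% of ILC-like cells held a UMI of Tcrg-C4, against 1.13%, 1.23% and 1.475% of NK cells and 0%, 0.735% and 0% of B cells. For NK cells this lay within the upper counting limits of the few B cells (1.86% and 4.03% in the KG+ libraries). With all UMIs it was 2.79%, 4.50% and 5.63% of NK cells, against 0 of 197, 1 of 136 and 1 of 10 B cells, so only in Kaede-green 1 did the counting intervals not overlap.

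At 2000 UMIs per cell, joint detection of these genes was compared with the product of their separate shares. The number of NK cells with both a Trdc and a Trdv4 UMI was 50, 47 and 18, which was 1.02 (95% interval 0.757 to 1.34), 0.9749 (0.716 to 1.30) and 0.842 (0.499 to 1.33) times that product. All 3 intervals held 1. They are exact and, like all intervals here, cover counting error only. For Trdc with any of Tcrg-C1, Tcrg-C2 and Tcrg-C4 in NK cells, the ratios were 0.772, 1.01 and 1.497 over 5, 8 and 8 cells, with intervals that all held 1.

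Joint detection of Trdc with a gamma constant gene varied among T cell types. It gave ratios of 2.28, 2.18 and 2.65 in Cd163l1- DN T cells (112, 61 and 75 cells) and 4.27, 2.80 and 3.19 in CD8 T cells (15, 12 and 16 cells). The lower bounds of these 6 intervals were above 1, the lowest being 1.45. CD4 T cells gave 13.4, 7.82 and 0 over 8, 4 and 0 cells. Cd163l1+ DN T cells gave 1.05, 1.09 and 1.03, with intervals that all held 1. Nearly all of these cells held Trdc, so the ratio could not rise far above 1 and cannot show whether the genes go together. A gamma constant UMI was in 93.6%, 79.8% and 97.5% of the Cd163l1+ DN T cells with Trdc. In the few without Trdc it was in 35.7%, 11.1% and 40.0%. The intervals of NK cells overlapped those of CD8 T cells in Kaede-green 2 and Kaede-red, and the difference between cell types was not tested. Tcrg-C2 with Trgv2 in CD8 T cells gave 4.46, 6.36 and 3.70 over 20, 42 and 118 cells, also with lower bounds above 1.

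**Figure D2:**
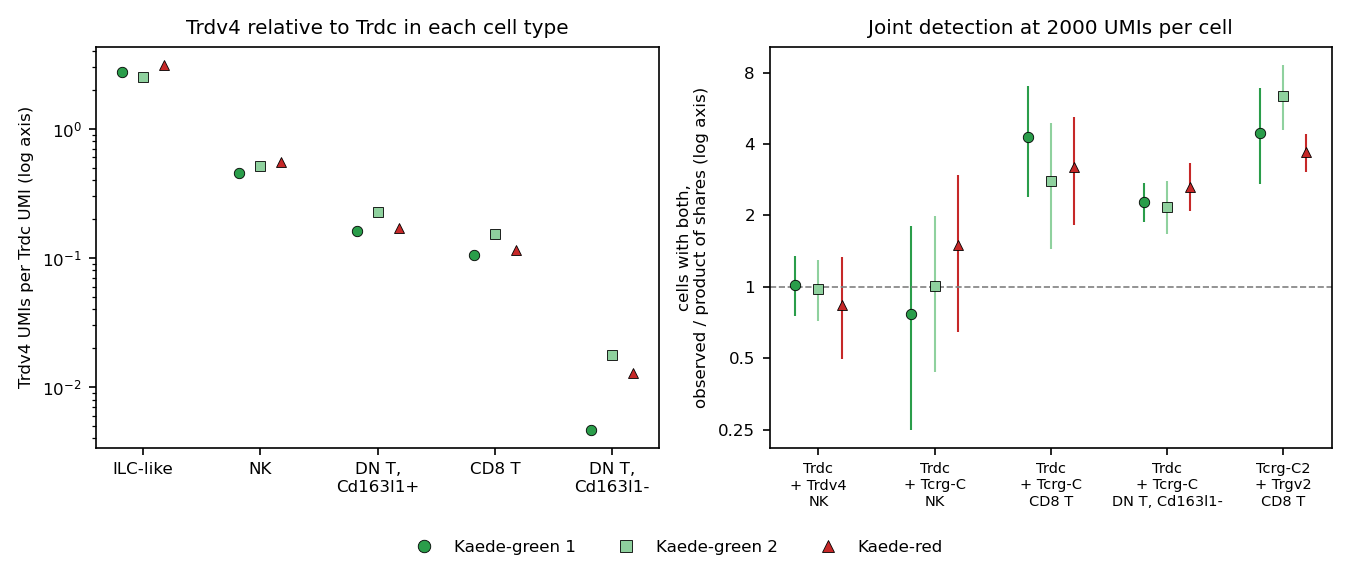
Left, Trdv4 UMIs per Trdc UMI (logarithmic axis) in 5 cell types, 1 point per library. Right, cells with both genes relative to the product of the separate shares (logarithmic axis, each cell thinned to 2000 UMIs, bars exact 95% counting intervals), where NK cells lie around 1 and CD8 T and Cd163l1- DN T cells lie at 2.18 to 6.36.

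By Kaede color, the delta genes in NK cells were lower in KR+ on the CPM scale and not on the scale of molecules per cell. The log2 ratio of Trdc CPM in KR+ was -1.17 against Kaede-green 1 and -1.05 against Kaede-green 2, and -0.11 between these libraries, and that of Trdv4 in KR+ was -0.90 and -0.96. Per NK cell, Trdc stood at 0.833, 1.02 and 0.983 UMIs and Trdv4 at 0.379, 0.524 and 0.539 UMIs, with KR+ inside the range of the KG+ libraries or just beyond it. KR+ NK cells had a median of 17515 UMIs against 6045 and 7954. In NK cells 47.0% of the 6752 genes at 10 CPM or more were lower in KR+ than in both KG+ libraries by more than these differed, and 23.9% were higher, so a lower CPM was common in these cells. The part of depth per cell in the difference was not tested.

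Tcrg-C4 in NK cells showed the reverse, at near equal CPM and with 0.0594, 0.0801 and 0.153 UMIs per cell. In CD8 T cells, Tcrg-C2 was higher in KR+ on both scales, by 1.14 and 0.98 in log2 CPM and by 1.66 and 1.27 in log2 UMIs per cell, with 0.16 and 0.40 between the KG+ libraries. The share of CD8 T cells with a Tcrg-C2 UMI at 2000 UMIs was 6.23%, 4.93% and 10.8%. Trgv2 stood at 0.213, 0.410 and 0.738 UMIs per CD8 T cell, but the KG+ libraries differed from each other by more than Kaede-green 2 differed from KR+. In CD8 T cells 25.7% of 6907 genes were higher in KR+ by the same rule. All color values rest on 1 KR+ library and have no replicate check.

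**Figure D3:**
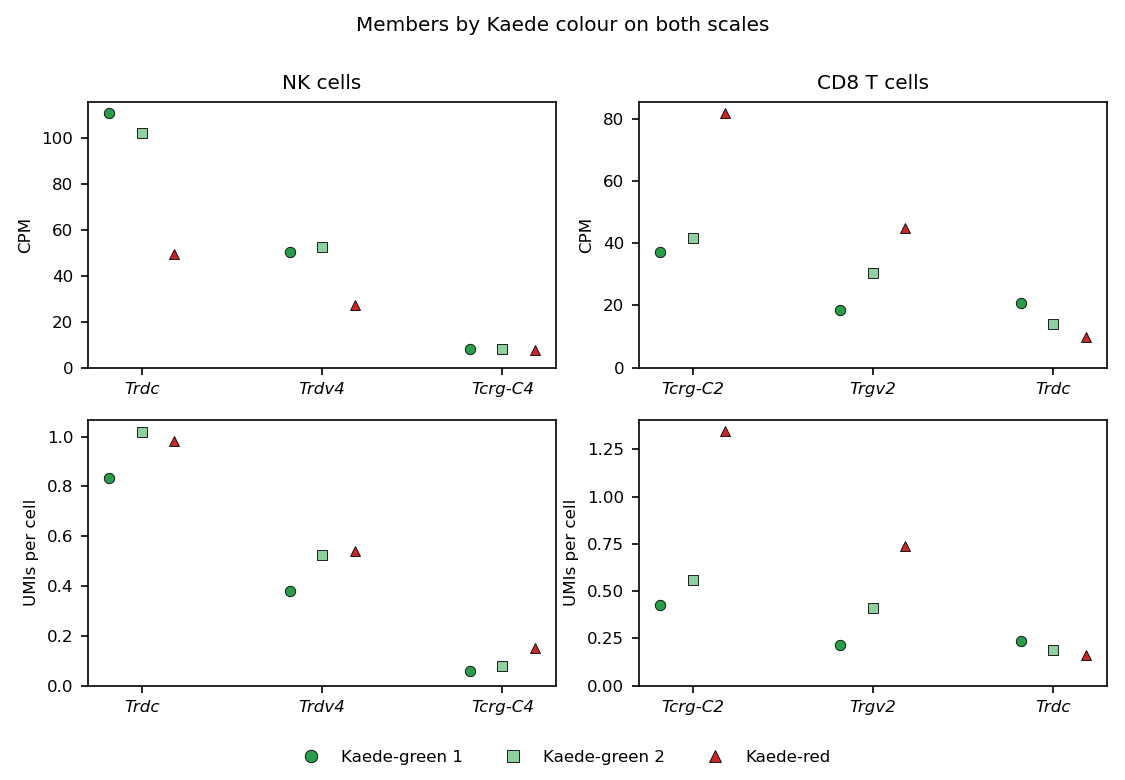
Members in NK cells (left) and CD8 T cells (right) in CPM (upper row) and UMIs per cell (lower row), 1 point per library. Trdc in NK cells is lowest in Kaede-red in CPM (49.5) and inside the Kaede-green range per cell (0.983), while Tcrg-C2 in CD8 T cells is highest in Kaede-red in both rows.

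Within NK cells, the study's own contrast between cells expressing Itgam, the CD11b integrin of circulating NK cells, and cells expressing Itga1, the CD49a integrin of tissue-resident ones, used no value that chose the members. Tcrg-C4 was lower in Itgam+ NK cells, and neither delta gene passed the test. NK cells with a UMI of Itgam and none of Itga1 numbered 422, 298 and 75, and those with the reverse 290, 421 and 1413. The gate on low CD11b limits which Itgam+ cells could be sampled. Tcrg-C4 stood at 3.11, 4.77 and 0 CPM in Itgam+ cells (8, 11 and 0 UMIs) against 16.7, 13.1 and 8.37 CPM in Itga1+ cells (62, 78 and 306 UMIs). The groups did not overlap. In Kaede-red, where the Itgam+ cells held 0 UMIs, a floor of 3 UMIs corresponded to 4.78 CPM. The log2 fold change was -2.14 (SE 0.363, 95% interval -2.94 to -1.34, edgeR quasi-likelihood test with Benjamini-Hochberg adjusted p = 0.00144). It was the 1 call among the 3 members that could be tested, against a background of 30.1% of the 9759 genes tested, with 15.9% lower in Itgam+ cells and 14.2% higher. Median UMIs per cell were 5339 to 6717 in Itgam+ and 9161 to 25054 in Itga1+ cells, and the part of depth was not tested. On the scale of molecules the direction was the same, at 0.0190, 0.0369 and 0 UMIs per Itgam+ cell and 0.214, 0.185 and 0.217 per Itga1+ cell. With each cell thinned to 2000 UMIs, Tcrg-C4 had too few UMIs to be tested.

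For Trdc the scale decided the direction. It stood at 84.9, 106.3 and 55.7 CPM in Itgam+ and 80.5, 76.7 and 39.6 CPM in Itga1+ NK cells (log2 fold change 0.23, SE 0.125, interval -0.04 to 0.51, edgeR adjusted p = 0.188), but at 0.517, 0.822 and 0.467 against 1.03, 1.09 and 1.02 UMIs per cell. Thinned to 2000 UMIs, the log2 fold change was -0.22 with an edgeR adjusted p of 0.571, and over all alternatives that p was 0.0873 to 0.702. Trdv4 stood at 59.6, 56.8 and 73.2 CPM against 43.9, 48.8 and 23.6 CPM, not overlapping, with a log2 fold change of 0.55 (SE 0.212) and an edgeR adjusted p of 0.0732. It passed the threshold without the low-count filter (log2 fold change 0.50), with doublets kept (0.57) and without Kaede-green 2 (0.86), while it was 0.23 without Kaede-red and 0.12 with each cell thinned to 2000 UMIs (edgeR adjusted p = 0.183 and 0.827). In the fit without the filter the spread came from the trend over all genes, as in the comparisons by Trdc, so its p-value may be too small. Over all alternatives the adjusted p was 0.0019 to 0.827. Per cell Trdv4 was at 0.363, 0.440 and 0.613 against 0.562, 0.691 and 0.611 UMIs. The other 4 genes had too few UMIs in NK cells to be tested.

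**Figure D4:**
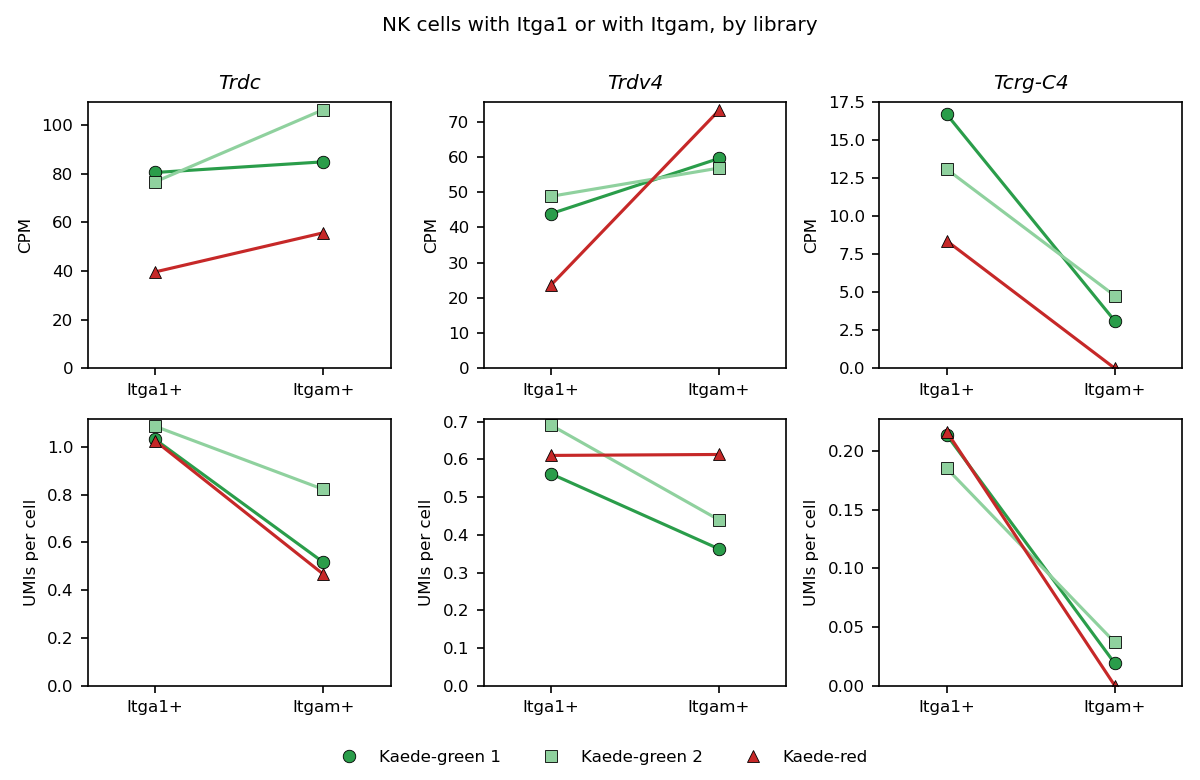
Trdc, Trdv4 and Tcrg-C4 in NK cells with Itga1 (left of each panel) or Itgam (right), in CPM (upper row) and UMIs per cell (lower row), with lines joining the 2 groups of 1 library. Tcrg-C4 is lower with Itgam in all 3 libraries on both scales, and Trdc changes direction between the scales.

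Genes of receptor signaling and of locus control were called in the same contrast, and for several of them, as for Trdc, UMIs per cell ran the other way. On the CPM scale, where 14.2% of all genes tested were higher in Itgam+ NK cells, 5 of 10 receptor signaling genes were higher and 0 lower (list median 0.37 against 0.01 over all genes tested), among them the kinases Syk (log2 fold change 1.17) and Fyn (1.00) and the adaptors Hcst (0.73) and Tyrobp (0.28), which couple activating NK receptors to kinases. Of 15 tested regulators of the gamma and delta loci, from a list of 18, 8 were higher and 0 lower (median 0.48). The first 6 by p-value were Runx1 (1.05), Id2 (0.52), Ets1 (0.57), Tox (1.16), Gata3 (0.52) and Stat5b (0.63). These are transcription factors of lymphocyte development, and Id2 holds back the E proteins. Per cell, Hcst stood at 4.16, 4.91 and 4.68 UMIs in Itgam+ against 5.21, 5.42 and 7.20 in Itga1+ NK cells, and Id2 at 7.32, 8.33 and 7.32 against 9.16, 10.1 and 16.3. Tyrobp, Ets1, Gata3 and Stat5b were likewise lower per Itgam+ cell in 3 of 3 libraries, while Syk and Fyn were higher in 2 of 3. Of 7 CD3 and alpha-beta chain genes, Cd247, the zeta chain that NK receptors also use, was higher (1.00), as was Trac (0.39). Maf (0.56) was the 1 call among 2 tested genes of the 13 in the gamma-delta T cell program. Of the ILC1 markers 0 of 4 tested were called (Cxcr6 -0.81, Il7r -0.10, Tcf7 0.06 and Rora 0.34). Whether ILC-like cells that the rule missed have a part in the Tcrg-C4 difference was not tested. Higher in Itgam+ cells were 3 of 5 NK markers, Eomes (1.175), Klrb1c (0.87) and Ncr1 (0.33), and 2 of 3 tested myeloid markers. Myeloid markers summed to 14.0, 241.7 and 163.9 CPM in Itgam+ against 23.2, 41.3 and 6.24 CPM in Itga1+ NK cells, and their part in these counts was not tested.

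NK cells with a Trdc UMI were next compared with those without one, at an equal depth of 2000 UMIs per cell. The split gave 462, 443 and 306 NK cells with Trdc and 2012, 2003 and 2609 without. Neither of the 2 other members that could be tested passed. Trdv4 was held by 10.2%, 10.2% and 6.54% of the cells with Trdc and 10.4%, 10.7% and 6.55% of those without (log2 fold change -0.08, SE 0.152, interval -0.38 to 0.22, edgeR adjusted p = 0.985). Its fold change was -0.28 at 4000 UMIs per cell (interval -0.48 to -0.08) and -0.31 with doublets kept. The unadjusted edgeR p was 0.00758 and 0.0532, and the adjusted p 0.336 and 0.67. In the other settings Trdv4 lay between -0.12 and -0.06. Tcrg-C4 gave -0.03 (SE 0.378, interval -0.77 to 0.71, edgeR adjusted p = 0.999), a value that depended on the setting. It was -2.26 in NK cells with no Cd3e UMI, -1.14 with doublets kept and -0.75 at 4000 UMIs per cell (unadjusted p = 0.000395, 0.00945 and 0.00759, edgeR adjusted p = 0.136, 0.394 and 0.336). Over all alternatives its adjusted p was 0.136 to 1. With all UMIs, Tcrg-C4 was held by 2.38%, 2.91% and 3.16% of NK cells with Trdc and 3.07%, 5.79% and 7.52% of those without, lower in 3 of 3 libraries. Over all genes, 0.575% of the 9219 tested passed, 18 higher (0.195%) and 35 lower (0.38%) with Trdc. DESeq2 called 5 genes on the same sums, and leaving the library out of the edgeR model called 0, with 108 genes at an unadjusted p under 0.05 against 612 in the model with it.

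The genes lower in the Trdc+ NK cells were led by granzymes D to G and by the antigen-presentation genes of MHC class II. Gzmd fell by 1.46, Gzme by 1.39, Gzmg by 3.17 and Gzmf by 0.97 on the log2 scale. Cd74, the class II invariant chain, fell by 1.498, H2-Eb1 by 1.35, H2-Aa by 1.33 and H2-Ab1 by 1.02. All 8 had edgeR adjusted p-values of 8.15e-05 or less, but DESeq2 called only Cd74 of them (adjusted p = 7.66e-06), giving 0.119 to 1 for the others, and the fit without the library block called none. The libraries also differed widely, as in Gzmg at -1.03, -4.89 and -2.84. B cell markers summed to 3.25, 3.39 and 0 CPM in NK cells with Trdc and 7.95, 10.7 and 1.15 CPM in those without, and their part in the class II difference was not tested. The top 1% of NK cells without Trdc held 81.8%, 63.4% and 61.8% of the Cd74 UMIs.

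The genes higher with Trdc changed less. They were Kbtbd11 (log2 fold change 0.66), the costimulatory receptor Cd27 (0.36), Gzma (0.32), the Ly49 receptor Klra4 (0.29), Traf1 (0.27), the nuclease Isg20 (0.26), the costimulatory receptor Tnfrsf9 (0.23) and Grcc10 (0.23), all with the same sign in 3 of 3 libraries, and DESeq2 called 0 of these 8 (adjusted p = 0.793 to 1). Gzma shows how the libraries differed, at 0.11, 0.16 and 0.72, and it was not called by edgeR with robust dispersions (adjusted p = 0.926), with a range over the alternatives of 1.79e-25 to 1. In this comparison edgeR took the spread of every gene from the overall trend, so a gene whose libraries differ more than the trend has too small a p-value. Among the lists, Cd27 of the gamma-delta T cell program (2 of 13 tested) and Fcer1g (0.13, edgeR adjusted p = 0.00633) of the 10 signaling genes were the only calls, and 0 of 15 locus regulators and 0 of 7 CD3 and alpha-beta chain genes passed.

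The same split in CD8 T cells gave another picture. CD8 T cells with a Trdc UMI at 2000 UMIs numbered 47, 65 and 38, against 2264, 3200 and 4052 without. Of the 5 members that could be tested there, 3 were higher with Trdc and 0 lower. The sums with Trdc held only 76000 to 130000 UMIs, so that a few UMIs there could meet the low-count filter. Tcrg-C1 was held by 23.4%, 7.69% and 15.8% of the cells with Trdc against 0.751%, 0.781% and 0.666% of the rest (log2 fold change 5.02, SE 0.426, edgeR adjusted p = 5.29e-28). It averaged 153.3 CPM with Trdc and 4.49 CPM without. Its call may therefore also depend on the cells with Trdc to meet the filter. Tcrg-C4 was held by 12.8%, 7.69% and 10.5% against 1.19%, 1.25% and 1.58% (2.83, SE 0.552, edgeR adjusted p = 7.87e-05). Trdv4 was found in 3, 1 and 3 of the cells with Trdc (5.63, SE 1.00, edgeR adjusted p = 7.54e-06). It averaged 38.8 CPM with Trdc and 0.759 CPM without. Trdv4 thus met the filter only through the group where it was high, and its call is not independent of that filter. Without Kaede-green 1 neither Tcrg-C4 (2.64) nor Trdv4 (5.91) passed the threshold. Tcrg-C2 (0.50, interval -0.20 to 1.19) and Trgv2 (-0.34, interval -1.48 to 0.79), the gamma genes most abundant in CD8 T cells, were not called, with edgeR adjusted p-values of 0.801 and 0.963. Both depended on the setting, and neither was called in any. At 4000 UMIs per cell Tcrg-C2 was 0.65 and Trgv2 0.54 (edgeR adjusted p = 0.0594 and 0.593). With doublets kept they were 0.75 and 0.90 (edgeR adjusted p = 0.29 and 0.348). Trgv2 was negative in every other setting, and Tcrg-C2 was positive in all. Over all genes 1.01% of the 9245 tested passed, 0.206% higher and 0.8% lower, as 19 higher and 74 lower. With DESeq2 size factors the split was 27 higher and 37 lower. As in the NK comparison by Trdc, edgeR took the spread of every gene from the overall trend. A gene whose libraries differ more than the trend therefore has too small a p-value here too.

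**Figure D5:**
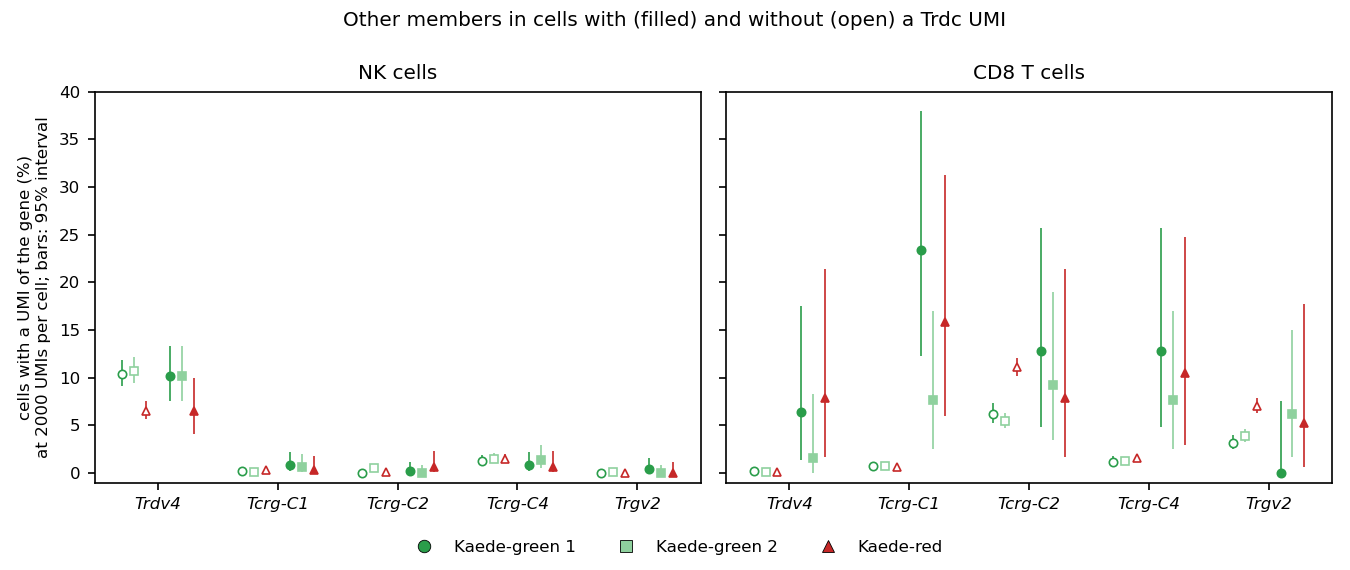
Percent of cells with a UMI of 5 other members at 2000 UMIs per cell, in NK cells (left) and CD8 T cells (right), with filled points for cells with a Trdc UMI and open points for cells without one, 1 point per library and bars for exact 95% counting intervals. In NK cells Trdv4 is at 6.54% to 10.7% in both groups, while in CD8 T cells Tcrg-C1 is at 7.69% to 23.4% with Trdc and under 1% without.

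Of the 6 IL-17-type markers only Cd163l1 had enough UMIs to be tested in CD8 T cells, and it was higher with Trdc (log2 fold change 5.06). It averaged 61.1 CPM with Trdc and 1.68 CPM without. Cd163l1 thus met the low-count filter only through the cells with Trdc, and its call is not independent of that filter. The other genes with the largest increases, besides the members, were Tmem176b (3.89), Selenop (2.53), Ramp1 (2.49), the receptor partner of the CGRP receptor, and the water and glycerol channel Aqp3 (2.47). Tmem176b averaged 62.4 CPM with Trdc and 4.14 CPM without, so it too may have met the filter through the cells with Trdc. The summed IL-17-type markers were 148.9, 53.8 and 276.3 CPM in CD8 T cells with Trdc and 2.87, 2.97 and 2.22 CPM in the rest. A UMI of Cd163l1 or Tcrg-C1 was found in 12, 5 and 6 of the cells with Trdc (25.5%, 7.69% and 15.8%), so most of them held neither. Trac or Trbc2 was found in 97.9%, 98.5% and 92.1% of the cells with Trdc and 97.4%, 97.1% and 97.6% of the rest. Trbc2 does not separate these cells from Cd163l1+ DN T cells. With all UMIs in Kaede-green 1, it was in 99.1% of CD8 T cells with Trdc and 96.25% of Cd163l1+ DN T cells with Trdc. Trac alone was in 96.5% and 31.9% of the same cells. Whether barcodes that hold 2 cells have a part in the counts of CD8 T cells with Trdc was not tested beyond the removal of predicted doublets.

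The largest decreases were in the chemokine Ccl3 (fell by 2.12), the granzyme Gzmd (fell by 1.88), the metallothionein Mt1 (fell by 1.61) and the histone genes Hist1h2ap (fell by 1.42) and Hist1h1b (fell by 1.4), beside Ssbp4 (fell by 1.81), Gna15 (fell by 1.77) and Trappc6b (fell by 1.55). On the same sums DESeq2 called 8 of the 8 named genes that were higher and 2 of the 8 that were lower, Mt1 and Hist1h2ap. Cd8b1 and Cd8a, used to define the cells, fell by 0.84 and 0.63. Of the 9 tested signaling genes the adaptors Tyrobp (1.31) and Fcer1g (1.26) were higher and Hcst fell by 0.43, and of the 15 tested locus regulators Id2 fell by 0.53.

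Over the 7 cell types in 3 libraries, the 5 genes whose log2 CPM ran most like Trdc were Kif1b (Pearson r = 0.91), Cdk2ap2 (0.90), Irf2bpl (0.90), Tmem59 (0.89) and Tcrg-C1 (0.89), among 7130 genes at a mean of 10 CPM or more. For Trdv4 they were Mgat5 (0.92), Hspa5 (0.91) and Tmed2 (0.89), and for Tcrg-C1 they included Aqp3 (0.96) and the cytokine gene Il17a (0.95). Tcrg-C2 and Trgv2 were each other's nearest gene (0.98), followed for both by Ehd3 and Cd3g. Tcrg-C4 ran most like Apol7e (0.88), Tmem176b (0.86) and Lysmd2 (0.82), and Tcrg-V6 like Cd163l1 (0.97), which the cell type rule used, Abi3bp (0.96) and Pi4k2a (0.96). These 21 values share libraries and cells and are not independent, and without the B cells 0 to 4 of the nearest 5 genes stayed the same.

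By count of UMIs, the other 19 gamma and delta gene segments of the deposited tables were sparse, with 1 exception. Trdv2-2, another delta variable gene, had 781 UMIs in NK cells, of 828 for all 19 there, and 64 or fewer in any other type. The NK cells held 100839766 UMIs of all genes. It was not called between Itgam+ and Itga1+ NK cells (log2 fold change 0.63, edgeR adjusted p = 0.0703) or between NK cells with and without Trdc (-0.07, edgeR adjusted p = 0.992). Within Cd163l1- DN T cells Tcrg-V1 and Tcrg-V4 held the most UMIs of these segments, 253 and 120 among 26726447 UMIs of all genes. Cd163l1+ DN T cells held 54 and 18 of them, and 33 of Tcrg-V5, among only 3110097. ILC-like cells held 33 of Tcrg-V1 and 0 of Tcrg-V4 among 7058631. Within CD8 T cells Tcrg-V3, Tcrg-V1 and Tcrg-C3 led with 108, 106 and 67 UMIs among 137490830. These counts are not scaled to the totals, so by themselves they do not rank the cell types or the segments. Relative to these totals, Tcrg-V1 in both DN T cell types was higher than Trdv2-2 in NK cells. Trgj3, Trdv2-1, Trdd1, Trdd2 and Trdj2 were at 0 UMIs in all 7 types.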

How the data were processed

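Cells sorted from tumors were profiled with the Chromium Single Cell 3′ kit. Per the labels, the authors aligned the reads to mm10 with Cell Ranger 6.1.2 and deposited filtered UMI counts per gene and cell, with no normalization. The header of the count matrices names Cell Ranger 6.0.1. The deposited libraries held 87193225, 129438292 and 175848894 UMIs in 10498, 12327 and 11956 cells. Barcodes outside 1000 to 6000 detected genes, or with 7.5% or more of UMIs from mitochondrial genes, were dropped as in the study's methods, and doublets were removed by Scrublet scores per cluster (357, 470 and 256 cells, in scanpy 1.11.5). Cell types followed fixed UMI rules on the genes named in the report. Cells were summed per library and group and tested with edgeR 4.0.16 (quasi-likelihood, TMM, filterByExpr) in R 4.3.3, with the library as a block. Both sums of a library are paired because they come from the same library, and same-library pairing needs no further check. Adjusted p-values are Benjamini-Hochberg over all genes tested, called under 0.05, leaving out Trdc where it made the split. In comparisons by Trdc, each cell was first thinned to 2000 UMIs. CPM is 1 sum per library, and the color ratio adds 0.5 UMIs. Likeness used log2(CPM + 1).

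Members and lists were chosen with earlier results of these data known. Named genes were the members, up to 6 called genes per list, and the 8 largest changes each way with 1 sign in all libraries and a mean of 20 CPM. Alternatives were DESeq2 1.42.0 and its size factors, no low-count filter, no block, each library left out, doublets kept, no Cd3e UMI in NK cells and another depth. Robust dispersions were added after seeing the data. The test script was tested on simulated data of the Itgam, NK Trdc and CD8 Trdc comparisons. It recovered 97%, 95% and 44.9% of genes changed by 2 on the log2 scale. Of genes changed by 1 it recovered 77.8%, 66.3% and 14.1%, so a gene not called in CD8 T cells may have changed. False calls were 2.81%, 5.88% and 7.94% of all calls in those data. Whether these shares hold for the deposited counts, where the libraries differed widely for some genes, was not tested. Coordinates are GENCODE vM21. Some genes of the lists and of the named-gene rule are not reported here.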

Additional observations from a re-analysis of the deposited data

Results flagged for a closer look

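In the comparisons by Trdc, 3 members had a log2 fold change in Kaede-red of the opposite sign to both Kaede-green libraries. They were flagged by sign alone, whatever the size. In each the difference between colors was not tested, since KR+ is 1 library. In NK cells with against without a Trdc UMI, the log2 fold change of Trdv4 was 0.01 in Kaede-red and -0.10 and -0.08 in Kaede-green. All of these were smaller in size than the SE of the fit (0.152). That of Tcrg-C4 in the same cells was -0.95 in Kaede-red and 0.56 and 0.02 in Kaede-green. In CD8 T cells with against without a Trdc UMI, that of Tcrg-C2 was -0.27 in Kaede-red and 0.60 and 1.28 in Kaede-green.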

How the results depend on the processing

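No member that passed the threshold changed direction under the alternatives that could test it. The number of called genes moved with the tool. For Itgam+ against Itga1+ NK cells (2934 genes), DESeq2 called 1785, the fit without the replicate block 1874, thinning to 2000 UMIs 901 and leaving out 1 library 1413 to 2982, the lowest without Kaede-green 1 and 1845 without Kaede-green 2. For NK cells with against without Trdc (53 genes), DESeq2 called 5, the fit without the replicate block 0, NK cells with no Cd3e UMI 23 and leaving out 1 library 22 to 35, that is 32 without Kaede-green 1, 22 without Kaede-green 2 and 35 without Kaede-red. For CD8 T cells (93 genes), DESeq2 called 23, the fit without the replicate block 5, keeping doublets 166, thinning to 4000 UMIs 144 and leaving out 1 library 36 to 69, with 36 without Kaede-green 1 and 41 without Kaede-red. The cause of these moves was not tested. Of the 166 and 144 genes, 55 each were among the 93. At 4000 UMIs the CD8 split was 56 higher and 88 lower against 19 and 74. DESeq2 size factors moved the median log2 fold change over all genes in CD8 T cells from -0.16 to -0.04. With robust dispersions, chosen after seeing the data, 3010, 45 and 85 genes were called. In CD8 T cells with Trdc the sums held 76000 to 130000 UMIs, which limits what could be called there.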
